A study of Mus musculus with 6 samples.

Results

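The genes described here are 10 components of microfibrils and elastic fibres: Mfap2, Mfap4, Mfap5, Fbn1, Fbn2, Eln, Fbln1, Fbln2, Fbln5 and Lox. They were measured by RNA sequencing of bulk samples of mouse embryonic stem cells differentiated toward sinoatrial node-like cardiomyocytes. They were taken by symbol from the 30631 genes listed in the deposited files, where each symbol occurs once. All 10 passed the filter on low values, a normalized count of at least 10 in at least 3 libraries, among 17034 genes tested. The group was chosen on the low value of Mfap2 in the libraries labelled knockout, seen in an earlier reading of the same data, and its other members were added by function. The differences between the labels are therefore given for these genes as descriptions and support nothing further.

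The study compared 3 libraries labelled wild type with 3 labelled Shox2-/-, a knockout of a homeobox gene of pacemaker development. All came from stem cell clones that had been grown with embryonic mouse fibroblasts beneath them. Their cells were differentiated as hanging drops, and cells carrying the surface protein CD166 were sorted at stage 7+1 days. The titles of the 3 libraries labelled knockout share the prefix J2, while those labelled wild type carry a different prefix each. Prefix, and clone where the prefix names it, therefore cannot be told apart from genotype. A Diff number in the titles is 9 in libraries 1 and 2 labelled wild type and in library 3 labelled knockout, and differs in the other 3; no label says what it stands for. No label says that the libraries of a group are separate cultures, so errors measure only the spread between these libraries, which may be technical.

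Microfibrils are thin extracellular filaments built from fibrillins. Small glycoproteins, MAGP-1 (encoded by Mfap2) and MAGP-2 (Mfap5), bind along the fibrillin backbone. In elastic tissue, fibulins help to deposit tropoelastin, the product of Eln, on this scaffold, and lysyl oxidase (Lox) cross-links it. In the heart such fibres are found in valves, great vessels and the connective tissue around the conduction system, and fibrillins and latent TGF-beta binding proteins also hold growth factors in the matrix.

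Reads recovered from the normalized counts numbered 13504683 to 34650564 per library, with library 1 of each label the shallowest. Libraries 1 and 2 labelled wild type were alike: 12.2% of the genes with at least 20 reads over the pair lay apart beyond counting error at the 5% level, against 41.3% to 63.6% in the other 14 pairs. Library 3 labelled wild type was the most distant from both of them, at 57.3% and 61.0%. Shox2 itself was higher in the libraries labelled knockout, at 200.7, 547.9 and 373.3 normalized counts against 89.6, 83.4 and 31.4, so every direction here is a direction between labels. Alcam, the gene of the sorted protein CD166, ranged from 5841 to 6591 under the wild type label and from 4176 to 5312 under the knockout label. Markers of cardiomyocytes were present in every library (Tnnt2, cardiac troponin T, 1332 to 2902), and so were those of mesenchyme (Pdgfra, a platelet-derived growth factor receptor gene, 8389 to 14844).

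Mfap2, the member with the widest gap between the labels, has its promoter sequence shown here because the results turn on it. Of the 10 genes, 5 (Mfap2, Fbn1, Fbln1, Fbln2 and Fbln5) have an entry in the RefSeq promoter table of GRCm38.p6. Mfap4, Mfap5, Eln, Fbn2 and Lox are not in it. Mfap2 has entries for 2 start sites on the plus strand, at 141010424 and 141010681 of chromosome 4. Fbln5, which has a start site at 101819119 on the minus strand of chromosome 12, is shown beside it as a member whose groups overlapped. Capitals mark motif matches in the 250 bases upstream of each start, searched on both strands. The motifs were the TATA box (TATAAA), the GC box (GGGCGG), the SMAD element (CAGAC), the TEAD element (GGAATG), a homeodomain core (TAATTA) and the CArG box. Bases that GENCODE places in an exon of the same gene are left out, so the 3 runs differ in length. The windows of Fbn1 and Fbln2 lie wholly in such exons.

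Mfap2, upstream start, chr4:141010174-141010417, plus strand: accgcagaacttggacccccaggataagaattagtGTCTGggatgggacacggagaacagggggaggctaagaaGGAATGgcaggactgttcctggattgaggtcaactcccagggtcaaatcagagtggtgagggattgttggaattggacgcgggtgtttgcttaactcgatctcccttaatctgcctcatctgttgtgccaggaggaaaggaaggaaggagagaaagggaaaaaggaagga

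Mfap2, downstream start, chr4:141010483-141010636, plus strand: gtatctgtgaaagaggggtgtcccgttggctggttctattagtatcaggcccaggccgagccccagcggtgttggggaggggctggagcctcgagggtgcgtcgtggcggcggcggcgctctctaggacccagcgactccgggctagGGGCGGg

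Fbln5, chr12:101819120-101819369, minus strand: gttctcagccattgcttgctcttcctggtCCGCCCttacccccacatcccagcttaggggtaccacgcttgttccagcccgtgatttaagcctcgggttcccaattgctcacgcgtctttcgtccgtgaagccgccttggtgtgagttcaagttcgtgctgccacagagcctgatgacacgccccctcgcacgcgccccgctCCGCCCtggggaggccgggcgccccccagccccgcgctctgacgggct

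The upstream Mfap2 window held 1 CAGAC and 1 GGAATG, and the downstream one held 2 copies of GGGCGG, the letters of a GC box, of which 1 lies in the part shown. The Fbln5 window also held 2 copies of GGGCGG. Over all 32851 RefSeq promoter windows of 250 bases, 32.7% held GGGCGG, 42.2% CAGAC and 12.6% GGAATG, so these matches are common. No TATAAA, present in 12.4% of windows, and no CArG box, present in 1.47%, was found in any member's window. TAATTA, found in 4.84% of all windows, occurred in 1, that of a further Fbln5 start site at 101818484. These are matches of letters only, and nothing was measured about binding.

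Mfap2 (ENSMUSG00000060572; mm10 chromosome 4, 141010418 to 141015984, plus strand), the MAGP-1 gene, had values of 207.5, 156.4 and 114.6 in libraries 1, 2 and 3 with the wild type label, in normalized counts, and of 29.4, 25.9 and 25.2 in the 3 with the knockout label. The groups were far apart: the lowest value labelled wild type was 3.90 times the highest labelled knockout, while values differed by at most 1.81-fold within the first group and 1.17-fold within the second. The means were 159.5 ± 46.5 and 26.8 ± 2.26 (SD, n = 3 each), a 5.94-fold lower level under the knockout label. On the log2(value + 1) scale, on which low genes are understated, the difference was -2.49 (SE 0.27, 95% interval -3.13 to -1.85). Between 125 and 240 reads stood behind the values labelled wild type, and 17, 29 and 34 behind those labelled knockout. Of the 17034 genes tested, 40 had a more negative log2 difference.

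**Figure D1:**
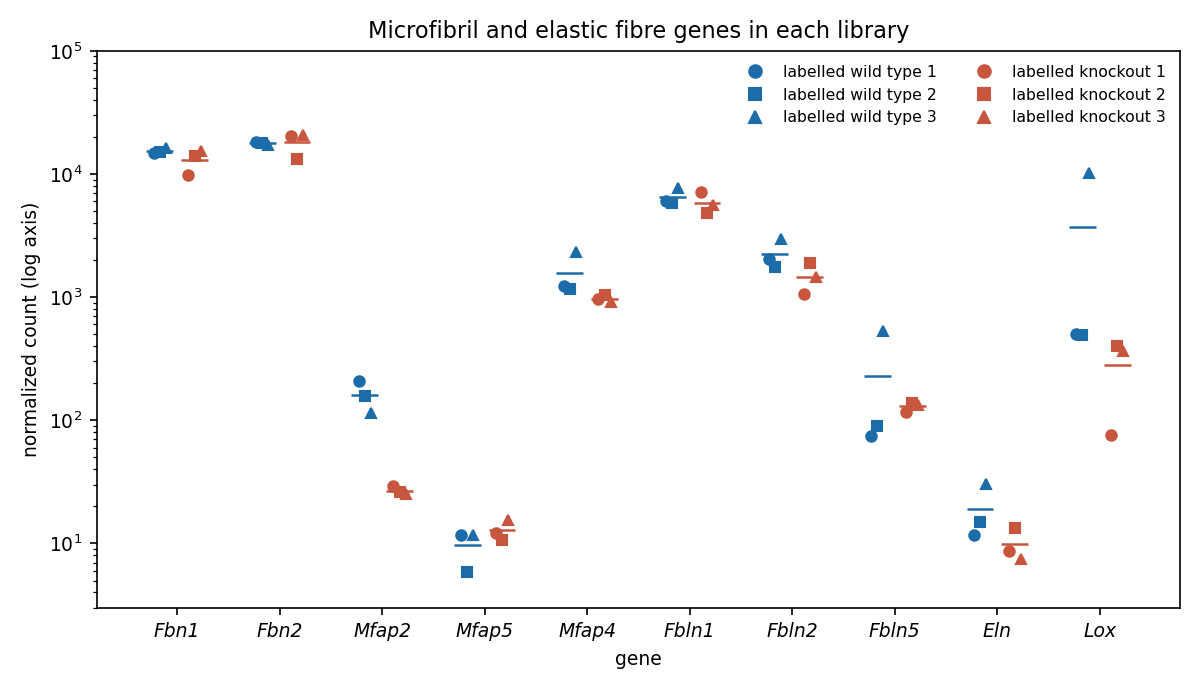
Normalized count of each gene in each library on a log axis, with horizontal lines at the group means. Mfap2 alone is separated by a wide gap between the labels, and library 3 labelled wild type (blue triangle) stands far above the rest for Lox and Fbln5.

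Mfap5, the gene of MAGP-2 (ENSMUSG00000030116; chromosome 6, 122505845 to 122529290, plus strand), had 11.6, 5.87 and 11.8 normalized counts under the wild type label and 12.1, 10.7 and 15.6 under the knockout label. These values overlap and rest on 7 to 21 reads each. The log2 difference was 0.40 (SE 0.39, 95% interval -0.52 to 1.32), the only one of the 10 above 0. That interval includes 0, so the sign for Mfap5 is not settled. Levels of the MAGP genes were 131.7 ± 38.4 for Mfap2 and 2.72 ± 0.938 for Mfap5 (normalized counts per kb of exon, wild type label, SD, n = 3).

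The fibrillin genes, which encode the backbone that MAGP-1 binds, were abundant and close to level. Fbn1 (ENSMUSG00000027204; chromosome 2, 125300594 to 125507993, minus strand) was measured at 14904, 15087 and 16268 normalized counts under the wild type label and 9839, 13951 and 15326 under the knockout label. The groups overlapped, and library 1 labelled knockout was the low one. Its log2 difference was -0.27 (SE 0.17, 95% interval -0.67 to 0.14). Of its merged exon bases, 20.1% also lie in Gm9913 on the opposite strand, which was at 11.6 to 24.1. No source used here says whether strand was considered in counting, so reads there cannot be assigned to one gene or the other. The same holds for 0.976% of Fbn2, shared with Gm26507, 3.3% of Eln and 0.628% of Lox.

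Fbn2, the fibrillin gene known mainly from development (ENSMUSG00000024598; chromosome 18, 58008623 to 58210487, minus strand), was measured at 18314, 17927 and 17079 normalized counts under the wild type label and 20275, 13187 and 20780 under the knockout label. Its 3 values labelled wild type lie inside the range of those labelled knockout. The log2 difference was -0.0044 (SE 0.18, 95% interval -0.44 to 0.43), whose sign turned in 6 of 16 alternative analyses.

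Mfap2 was also compared with Fbn1 within each library, a ratio that no scaling of a library can alter. Mfap2 was chosen for its low values under the knockout label, and Fbn1 was close to level. The ratio therefore repeats that contrast and is a description only. Per 1000 normalized counts of Fbn1, Mfap2 was at 13.9, 10.4 and 7.05 in libraries 1, 2 and 3 with the wild type label and at 2.99, 1.86 and 1.64 in the 3 with the knockout label. The groups did not overlap, with means of 10.4 ± 3.44 and 2.16 ± 0.723 (SD, n = 3 each), 4.83-fold apart. Library 3 labelled wild type was the lowest of its group and library 1 labelled knockout the highest of its own. The corresponding ratio of Mfap4 overlapped between the labels, at 77.5 to 143.5 and 60.0 to 97.6. That of Lox did not overlap, at 32.9 to 623.4 and 7.74 to 28.9.

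**Figure D2:**
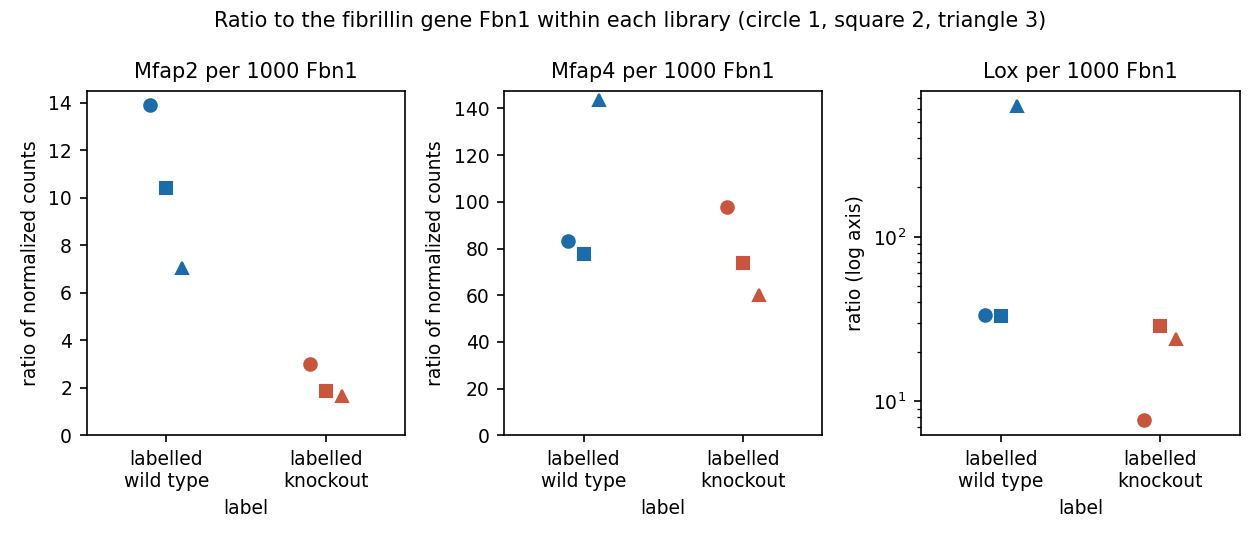
Normalized counts of Mfap2, Mfap4 and Lox per 1000 of Fbn1 in each library, with a log axis for Lox only. The Mfap2 ratio is 7.05 or higher under the wild type label and 2.99 or lower under the knockout label, the Mfap4 ratios overlap, and the highest Lox ratio, 623.4, is that of library 3 labelled wild type.

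Mfap4, a fibrinogen-like glycoprotein gene of elastic fibres (ENSMUSG00000042436; chromosome 11, 61485431 to 61488900, plus strand), had 1238, 1169 and 2334 normalized counts under the wild type label and 960.2, 1031 and 919.2 under the knockout label. The groups did not overlap, but the gap was narrow, 1.13-fold between the nearest values. The means were 1580.5 ± 653.5 and 970.3 ± 56.8 (SD, n = 3 each). Library 3 labelled wild type was 1.94 times the mean of the other two, and without it the log2 difference of -0.63 (SE 0.26) became -0.31. The last 89 exon bases of Mfap4, 4.63% of its exon length, overlap Mapk7 on the opposite strand.

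Fibulins are calcium-binding proteins that bridge elastin, fibrillin and other matrix. Of the fibulin genes among the members, Fbln1, Fbln2 and Fbln5, none separated the labels. Fbln1 (ENSMUSG00000006369; chromosome 15, 85205949 to 85286535, plus strand) had 6050, 5788 and 7681 normalized counts under the wild type label and 7130, 4774 and 5586 under the knockout label, a log2 difference of -0.17 (SE 0.18). Fbln2 (ENSMUSG00000064080; chromosome 6, 91212455 to 91272540, plus strand) had 2027, 1770 and 2962 against 1067, 1884 and 1445, a log2 difference of -0.62 (SE 0.25, 95% interval -1.22 to -0.03). In Fbln2 only library 2 labelled knockout reached into the range of the other label.

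Fbln5, whose product carries tropoelastin to microfibrils (ENSMUSG00000021186; chromosome 12, 101746565 to 101819055, minus strand), was measured at 74.7, 89.3 and 527.6 normalized counts under the wild type label and 117.7, 137.7 and 133.3 under the knockout label. Libraries 1 and 2 labelled wild type were the lowest of the 6 and library 3 of that label by far the highest. The log2 difference of -0.24 (SE 0.68) therefore changed sign, to 0.66, without library 3 labelled wild type.

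Eln, the gene of tropoelastin (ENSMUSG00000029675; chromosome 5, 134702593 to 134747323, minus strand), was near the lower end of detection, at 11.6, 15.0 and 30.6 normalized counts under the wild type label and 8.65, 13.4 and 7.41 under the knockout label. Its values rest on 5 to 39 reads and overlapped between the labels. The log2 difference was -0.82 (SE 0.45, 95% interval -1.87 to 0.24), and -0.43 without library 3 labelled wild type. Eln reached 10 in all 3 libraries labelled wild type but in 1 labelled knockout, so it passed the filter mainly through the label in which it was higher.

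Lox, the gene of lysyl oxidase (ENSMUSG00000024529; chromosome 18, 52516067 to 52529867, minus strand), was measured at 499.6, 496.0 and 10142 normalized counts under the wild type label and 76.1, 403.1 and 365.2 under the knockout label. The groups did not overlap, yet the nearest values were only 1.23-fold apart, and library 3 labelled wild type was 20.4 times the mean of libraries 1 and 2. The mean of 3712 ± 5568 (SD, n = 3) under the wild type label is thus set by 1 library. The log2 difference was -2.60 (SE 1.22, 95% interval -5.45 to 0.26), and -1.15 without that library. Lox and Mfap2 had nearly the same log2 difference with standard errors of 1.22 and 0.27.

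Across the 10 genes, 9 had a log2 difference below 0, Fbn2 at -0.0044 among them, where 48.2% of all tested genes did. Their median was -0.44, against 0.013 over all tested genes. In limma 0 of the 10 were called at a p adjusted over all genes under 0.05, with adjusted p from 0.0954 (Mfap2) to 0.993, and 0 of all genes were called (0%). At an unadjusted p under 0.05, 3 were lower (Mfap2, Mfap4 and Fbln2) and 0 higher, where 7.23% of all genes were lower and 6.92% higher. The labels did not overlap in 3 genes that were lower (Mfap2, Mfap4 and Lox) and in 0 that were higher, against 10.8% and 12.8% of all genes. Since Mfap2 was chosen for this contrast, nothing is read from these counts. With limma voom and sample quality weights on recovered reads, Mfap2 was the 1 member called, among 606 genes (3.56%).

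**Figure D3:**
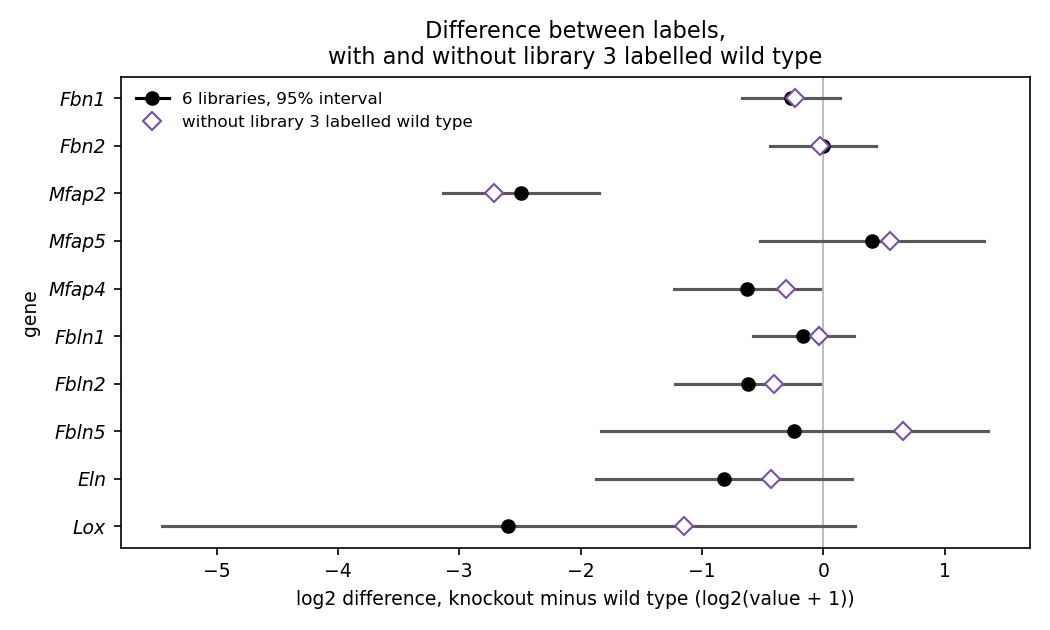
Log2 difference of each gene, knockout label minus wild type label, with 95% intervals from limma (black), and the same without library 3 labelled wild type (open diamonds). Mfap2 lies at -2.49 and at -2.71 without that library, Lox moves from -2.60 to -1.15, and Fbln5 crosses 0.

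The genes also varied among the libraries labelled wild type, whose values are part of the contrast on which Mfap2 was chosen. Library 3 labelled wild type had the highest value of all 6 libraries in 7 of the 10 genes (Fbn1, Fbln1, Fbln2, Fbln5, Mfap4, Eln and Lox), while it did so in 25.5% of all tested genes. On the log2(value + 1) scale it exceeded the mean of libraries 1 and 2 by 4.35 in Lox, 2.68 in Fbln5, 1.15 in Eln and 0.96 in Mfap4. It was lower than that mean by a difference of -0.65 in Mfap2 and -0.09 in Fbn2. No test was made on these values, with 1 library on one side.

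**Figure D4:**
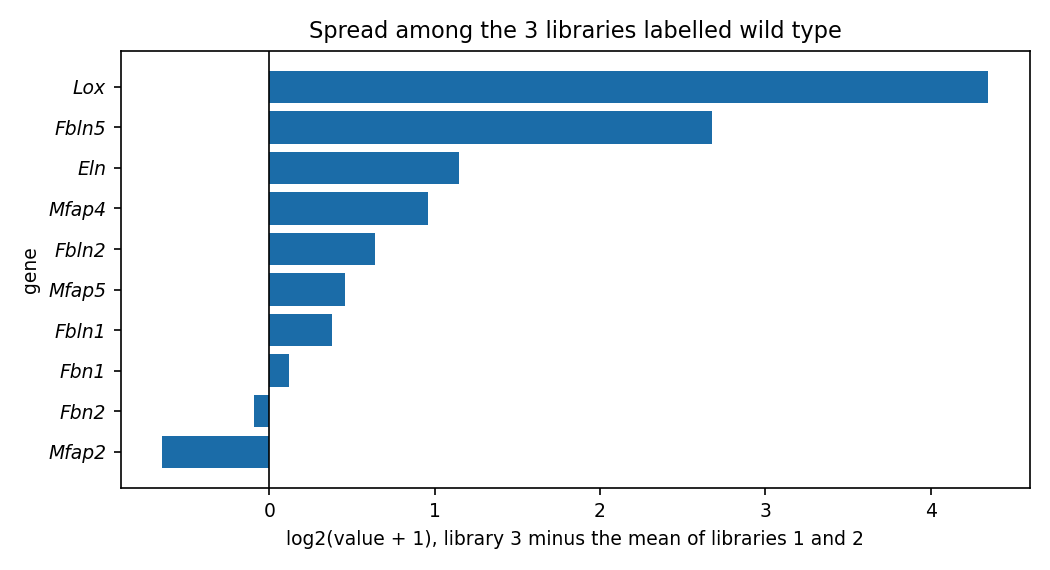
Library 3 minus the mean of libraries 1 and 2 labelled wild type for each gene, in log2(value + 1). Bars run from -0.65 for Mfap2 to 4.35 for Lox, with Fbn1 and Fbn2 near 0.

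Markers of fibroblasts and mesenchyme were lower as a sum in the same libraries. The summed level of 14 such markers was 384645, 379915 and 603480 in libraries 1, 2 and 3 with the wild type label and 190173, 239979 and 286835 with the knockout label. Of the 13 tested, 9 were lower and 4 higher, and 0 of the 14 were at 0 in all libraries. The collagen genes Col1a2 (47685 to 129358 against 12910 to 24814) and Col3a1 (217111 to 333969 against 106540 to 177188) did not overlap between the labels, and Col3a1 was the largest part of the sum in every library. In all, 6 of the 13 were lower and 1 was higher without overlap, against 10.8% and 12.8% of all tested genes. The 1 that was higher was Twist1, a mesenchymal transcription factor gene, at 1008 to 1332 against 1711 to 4443 (log2 difference 0.99, SE 0.36). Pdgfra averaged 12511 ± 3571 and 12619 ± 1930 (SD, n = 3 each), and Pdgfrb and Prrx1 had log2 differences of 0.25 and 0.21. In bulk samples fewer cells of a type and less RNA per cell cannot be told apart, and the part of such cells in the results was not tested.

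Mfap2 was also set against the summed fibroblast markers within each library. Per 1000 of that sum it had 0.539, 0.412 and 0.190 in libraries 1, 2 and 3 with the wild type label and 0.155, 0.108 and 0.0878 with the knockout label, a 3.26-fold difference of means. The groups did not overlap, with nearest values of 0.190 and 0.155. This ratio too carries the contrast for which Mfap2 was chosen, and is a description only. Mfap4 overlapped, at 3.08 to 3.87 against 3.20 to 5.05, and so did Lox, at 1.30 to 16.8 against 0.400 to 1.68.

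The sums of the epicardial and of the endodermal and epithelial markers also did not overlap between the labels, while those of the other cell type lists did. The summed level of 11 cardiomyocyte markers was 11731 in library 3 labelled wild type, 14960 in library 1 labelled knockout and 27880 to 39060 in the other 4 libraries. Markers of smooth muscle, which makes elastic matrix in vessels, summed to 45395 to 51709 and 40671 to 51592 under the wild type and knockout labels, with Acta2 the largest part. Of these 8 genes 5 were lower, 3 of them without overlap and at an unadjusted limma p under 0.05: Myh11 (log2 difference -1.57), Cnn1 (-0.76) and Des (-0.99). Of all tested genes, 48.2% were lower, 10.8% lower without overlap and 7.23% lower at an unadjusted limma p under 0.05. Epicardial markers summed to 4798 to 6132 and 2377 to 4384, with 6 of 7 tested genes lower. Endothelial and endocardial markers were lowest in library 3 labelled wild type, at 5200, against 8514 to 15542 elsewhere. Sums of 10 sinoatrial markers were 3850 to 8082 and 3900 to 4487. Endodermal and epithelial markers summed to 3811 to 9033 and 612.4 to 3196, with 7 of 7 genes lower and a median log2 difference of -1.13. Those of leukocyte and erythroid cells summed to 1562 to 11343 and 1995 to 15114. Their part in the results was not tested.

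Compared per length, the fibrillins and Fbln1 led, and Mfap5 and Eln were lowest. Under the wild type label Fbln1 had 1489.6 ± 234.8, Fbn2 1344.9 ± 47.8 and Fbn1 1271.4 ± 61.0 normalized counts per kb of merged exon (SD, n = 3 each). These 3 did not differ beyond their spread. Mfap4 followed at 822.3 ± 340.0, Lox at 777.0 ± 1165.3 and Fbln2 at 353.7 ± 98.5, of which Lox cannot be placed because its SD exceeds its mean. Mfap2 had 131.7 ± 38.4 and Fbln5 33.4 ± 37.2. The SD of Fbln5 also exceeds its mean, so its place is not settled either. Mfap5 and Eln were at 2.72 ± 0.938 and 2.36 ± 1.25, an order within their spread that turned with the length of the longest transcript. Under the knockout label Mfap2 was at 22.2 ± 1.87, close to Fbln5 at 18.7 ± 1.52, while Fbn1 was at 1075.1 ± 235.4 and Mfap4 at 504.8 ± 29.6.

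**Figure D5:**
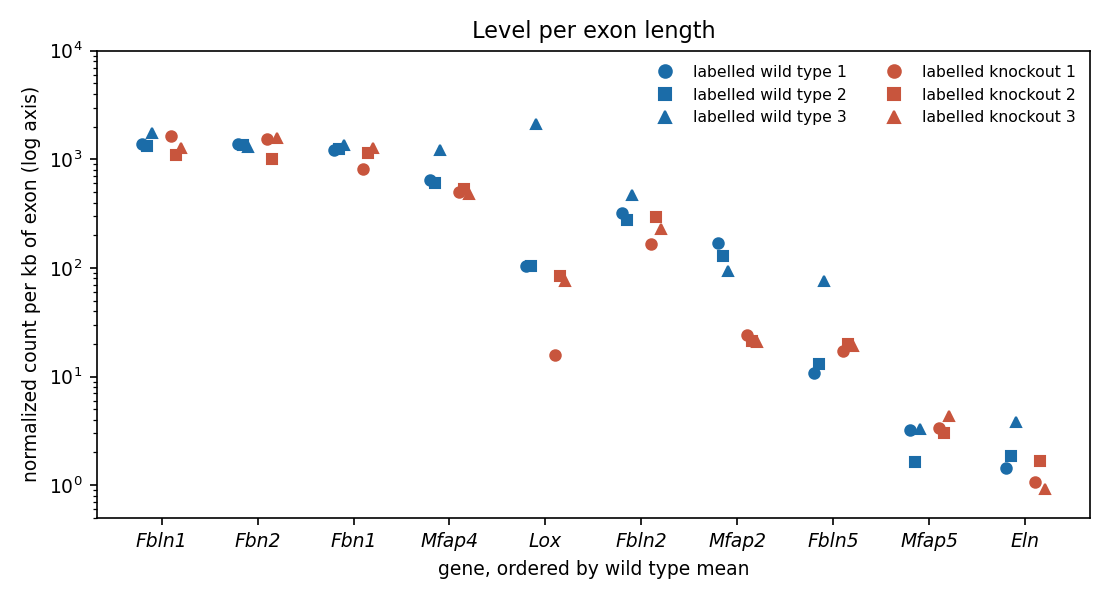
Normalized count per kb of merged exon length in each library on a log axis, with genes ordered by their wild type mean. Fbln1, Fbn2 and Fbn1 share the top, and Mfap5 and Eln lie below 5 in every library.

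Another 59 genes were listed for microfibril and elastic fibre biology, and 57 of them were tested. Of these, 48 were lower and 9 higher under the knockout label, with 0 called in limma in either direction. At an unadjusted p under 0.05, 11 were lower and 0 higher, where 7.23% and 6.92% of all tested genes were. The labels did not overlap in 14 that were lower and 0 that were higher, where 10.8% and 12.8% of all tested genes did not. Of all tested genes 48.2% had a difference below 0. The median log2 difference of the 57 was -0.31, against 0.013 over all tested genes. These lists were written with earlier results of the same data known.

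Among genes listed as microfibril partners, 22 of 24 tested were lower, with a median of -0.49. That list holds Mfap1a and Mfap1b (log2 differences -0.00 and -0.08), whose place in microfibrils was not checked. Efemp1, the gene of fibulin-3, had 199.2, 222.9 and 668.9 normalized counts under the wild type label and 36.3, 67.0 and 93.3 under the knockout label, a log2 difference of -2.32 (SE 0.53; limma adjusted p = 0.219). Ltbp2, a latent TGF-beta binding protein gene, had 54.8, 54.8 and 43.2 against 17.3, 28.6 and 24.4, a log2 difference of -1.11 (SE 0.29). In both genes every library labelled knockout lay below every one labelled wild type. Thsd4, the gene of a fibrillin-binding ADAMTS-like protein, also did not overlap, at 1315 to 1608 against 787.4 to 1259 (log2 difference -0.62, SE 0.19). Of the 24 tested, 6 were lower without overlap, where 10.8% of all tested genes were. Efemp2, the gene of fibulin-4, overlapped, at 2576.3 ± 419.3 and 2394.1 ± 180.1 (SD, n = 3 each).

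Genes of cross-linking and processing were closer to level, with 7 of 10 tested lower and a median of -0.13. Loxl4, a lysyl oxidase-like gene, had 94.6, 89.3 and 281.8 normalized counts under the wild type label and 53.6, 43.8 and 61.5 under the knockout label (log2 difference -1.33, SE 0.45). It was the 1 gene of the 10 that was lower without overlap, where 10.8% of all tested genes were. Loxl3 had a log2 difference of -0.66 (SE 0.31) and Tll1, a procollagen and pro-lysyl oxidase processing protease gene, one of -0.73 (SE 0.35). Loxl1, the paralogue most tied to elastin, averaged 1365.7 ± 72.2 and 1257.0 ± 370.0 (SD, n = 3 each).

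Receptors and scaffold genes of fibre assembly had a median of -0.07, with 8 of 10 lower. The fibronectin gene Fn1 averaged 72713 ± 14086 and 60598 ± 9354 (SD, n = 3 each), with overlap. Ctsa, a lysosomal protease gene whose product sits in the elastin receptor complex, had a log2 difference of -0.15 (SE 0.09), and Itga8, an integrin gene, one of -0.28 (SE 0.23). Ctsa was the 1 gene of the 10 that was lower without overlap, where 10.8% of all tested genes were. No member of that list had an unadjusted limma p under 0.05. Of all tested genes, 7.23% were lower and 6.92% higher at that threshold.

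Among genes of elastin degradation and its inhibitors, 9 of 10 were lower, with a median of -0.52. Timp1, a metalloprotease inhibitor gene, had 166.0, 173.4 and 393.3 normalized counts under the wild type label and 96.9, 115.3 and 84.4 under the knockout label (log2 difference -1.19, SE 0.35). Timp2 had a log2 difference of -0.42 (SE 0.15) and Mmp2, a gelatinase gene, one of -0.44 (SE 0.22). The labels did not overlap in any of these 3, which were named for their low p. Of the 10 tested, 4 were lower without overlap, where 10.8% of all tested genes were.

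The TGF-beta ligand genes, whose products are held latent on microfibrils, differed among themselves. Tgfb3 had 746.9, 779.5 and 1679 normalized counts under the wild type label and 285.5, 265.5 and 444.4 under the knockout label, a log2 difference of -1.62 (SE 0.34; limma adjusted p = 0.208). Tgfb2 had a log2 difference of -0.54 (SE 0.13). Both were lower without overlap, 2 of the 3 ligand genes, where 10.8% of all tested genes were. Tgfb1 overlapped, with a log2 difference of 0.18 (SE 0.28).

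The 5 genes whose pattern over the 6 libraries lay nearest to that of Mfap2 belonged to none of these lists. Likeness was the root mean square distance in log2(value + 1) after each gene's mean was subtracted. The nearest was the predicted gene Gm7173, at a distance of 0.188, with 12.6 to 26.6 normalized counts under the wild type label and 1.73 to 2.22 under the knockout label. The latter are 1, 2 and 3 reads, and the gene passed the filter only through the libraries labelled wild type, so its likeness rests on few reads. Sstr2 and Gm16150 also passed it only through those libraries. Sstr2, a somatostatin receptor gene, followed at 0.255, with 44.8, 34.5 and 35.3 against 5.19, 6.26 and 7.41. The predicted gene Gm16150 (0.436), Ccdc3, a secreted coiled-coil protein gene (0.444), and Cacna1e, which encodes a voltage-gated calcium channel subunit (0.453), completed the 5. Gm7173 stayed among the nearest 5 without each library in turn, Sstr2 in 5 of the 6 cases, Ccdc3 in 3, Gm16150 in 2 and Cacna1e in 1. The distance includes the difference between the labels, for which Mfap2 was chosen. The other 9 microfibril genes lay at distances of 1.070 (Fbln2) to 1.868 (Lox).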

How the data were processed

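Each deposited file lists an Ensembl ID, a symbol and 1 value per gene, written with a decimal comma. The submitters' processing notes name the build mm10 and the tools DESeq2 1.14.0, HTSeq, BWA and CASAVA 1.8.2, without saying what each did. The deposited values are gene read counts that the authors divided by 1 size factor per library: all (100%) were whole multiples of 1 step per library within 0.1 reads, which gave the reads. The strand setting is not given in the sources used here.

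The label was tested with limma 3.58.1 (R 4.3.3) on log2(value + 1). Variances were moderated along a trend with the mean, p-values are two-sided, and adjustment is by Benjamini-Hochberg over 17034 genes. The fit was first tried on simulated libraries drawn independently with the same spread. The libraries labelled wild type are not alike in that way, so the trial says nothing about error rates here. A sign below 0 means lower under the knockout label. Intervals are limma's 95% intervals. Positions and exon lengths are from GENCODE M21, where 30484 of 30631 IDs were found. Library pairs were compared by two-sided exact binomial tests per gene. Replicates are numbered in accession order.

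The members and lists were chosen with earlier results of these data known. Named genes are all members, the 3 of each pathway list with the lowest p, the 5 nearest to Mfap2, Shox2 and Alcam. Efemp2, Loxl1 and the single marker genes were named after their values were seen.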

Additional observations from a re-analysis of the deposited data

How the results depend on the processing

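In 16 alternative analyses (pseudocounts of 0.5 and 10, no filter or a minimum of 50, 3 other scalings, each library left out, a term for the 3 libraries whose titles hold Diff9, libraries 1 and 2 labelled wild type as 1 sample, and limma voom with sample quality weights) Mfap2 kept a log2 difference of -2.71 to -2.17, with an adjusted p of 0.0103 to 0.523. All genes called, 0 in the main analysis, became 2 without the filter and 606 with voom, which called 1 member (Mfap2) and 4 pathway genes. Without each library in turn, 0 to 51 genes were called, the 51 without library 2 labelled knockout, and 0 members were called in any of these cases. The 3 members with an unadjusted limma p under 0.05 became 1 to 4 without each library in turn, and 5 with the Diff9 term. The count was 1 without library 1 or 3 labelled knockout. The share of all tested genes under that threshold was not counted in these alternative fits, so nothing is read from these counts. Members lower without overlap numbered 3 to 5 without each library in turn, 5 without library 2 labelled knockout (Eln and Fbln2 added), where the share of all genes rose from 10.8% to between 13.1% and 18.8% (18.1% without that library), and Mfap2, Mfap4 and Lox were among them each time. Fbn2 changed sign in 6 and Fbln5 in 2 of the 16, Fbln5 to 0.66 without library 3 labelled wild type. Lox ranged from -3.32 to -0.93. Mfap5 and Eln failed the minimum of 50 and had no value there. With the longest transcript in place of merged exons, Eln and Mfap5 exchanged places in the order of levels.

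The planned edgeR and DESeq2 tests on recovered reads were not run. No paired analysis was possible because the groups share only 1 number in their titles, Diff9, which the labels do not call a replicate number. Depth limits Mfap5 and Eln, at 5 to 39 reads per library.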
